A study of Mus musculus with 12 samples.

Results

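Bulk RNA-seq of mouse eye organoids was used to compare 4 libraries of organoids treated with the lactate dehydrogenase inhibitor GNE-140 (LDHi) with 4 libraries of control organoids, which are 8 of the 12 libraries of the series. The members were taken from the library titles, control 1 to 4 and treated 1 to 4, and libraries were paired by their number. All organoids were grown from the Rx-GFP K/I EB5 line of embryonic stem cells (ESCs), 1 line in which GFP was knocked into Rax, and were harvested at day 7. GNE-140 was given at 20 µM for 3 days. The other 4 libraries (LDHi+lactate) also received 25 mM sodium L-lactate and are not compared here. They are part of the same fit, where they bear on the gene filter, the scaling, the replicate terms and the estimate of the spread. The labels give the cell type of replicates 1 and 2 as eye organoid and that of replicates 3 and 4 as retina progenitors. The comparison asks which genes, in the eye program and outside it, respond when the step from pyruvate to lactate is blocked during the days in which the optic vesicle forms.

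Lactate dehydrogenase reduces pyruvate to lactate and in doing so regenerates the NAD+ that glycolysis consumes. An organoid is a mixture: beside neural and retinal progenitors, an aggregate grown from ESCs can hold cells that kept the pluripotent state, cells of the germ layers, mesenchyme, neural crest and surface ectoderm, so changes were read over lists of genes for each of these as well as for metabolism, stress and signaling. In bulk samples fewer cells of a type and less RNA per cell cannot be told apart. All 7 markers used to check the tissue (Sox1, Sox2, Pax6, Rax, Six3, Lhx2 and Otx2) were counted in every control library, at 12.7 CPM (counts scaled to a common library size) or more. In LDHi libraries they were at 4.15 CPM or more.

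Total counts were 22174002 to 48271386 per library and were lower in replicates 3 and 4. Genes were tested with edgeR on raw counts with the replicate number as a block, and called at an adjusted p under 0.05. Of 17721 genes tested, 1746 (9.85%) were higher and 1787 (10.1%) lower in LDHi. Falls were larger than rises: the median log2 fold change was -0.65 for lower calls and 0.41 for higher calls, and 602 genes fell by at least 1 on the log2 scale against 384 that rose by as much. Of the 3533 calls, 3397 went the same way in 4 of 4 pairs. All 4 LDHi libraries lay above all 4 control libraries for 755 genes (4.26%) and below them for 958 (5.41%). Without the block 161 genes (0.909%) were higher and 386 (2.18%) lower, and all 547 were among the blocked calls with the same direction. The count of higher genes became 1152 without control 1, 1089 without control 3, 1074 without LDHi 3 and 1113 without LDHi 4. The median over all genes was 0.01, and list medians are given against that value.

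**Figure D1:**
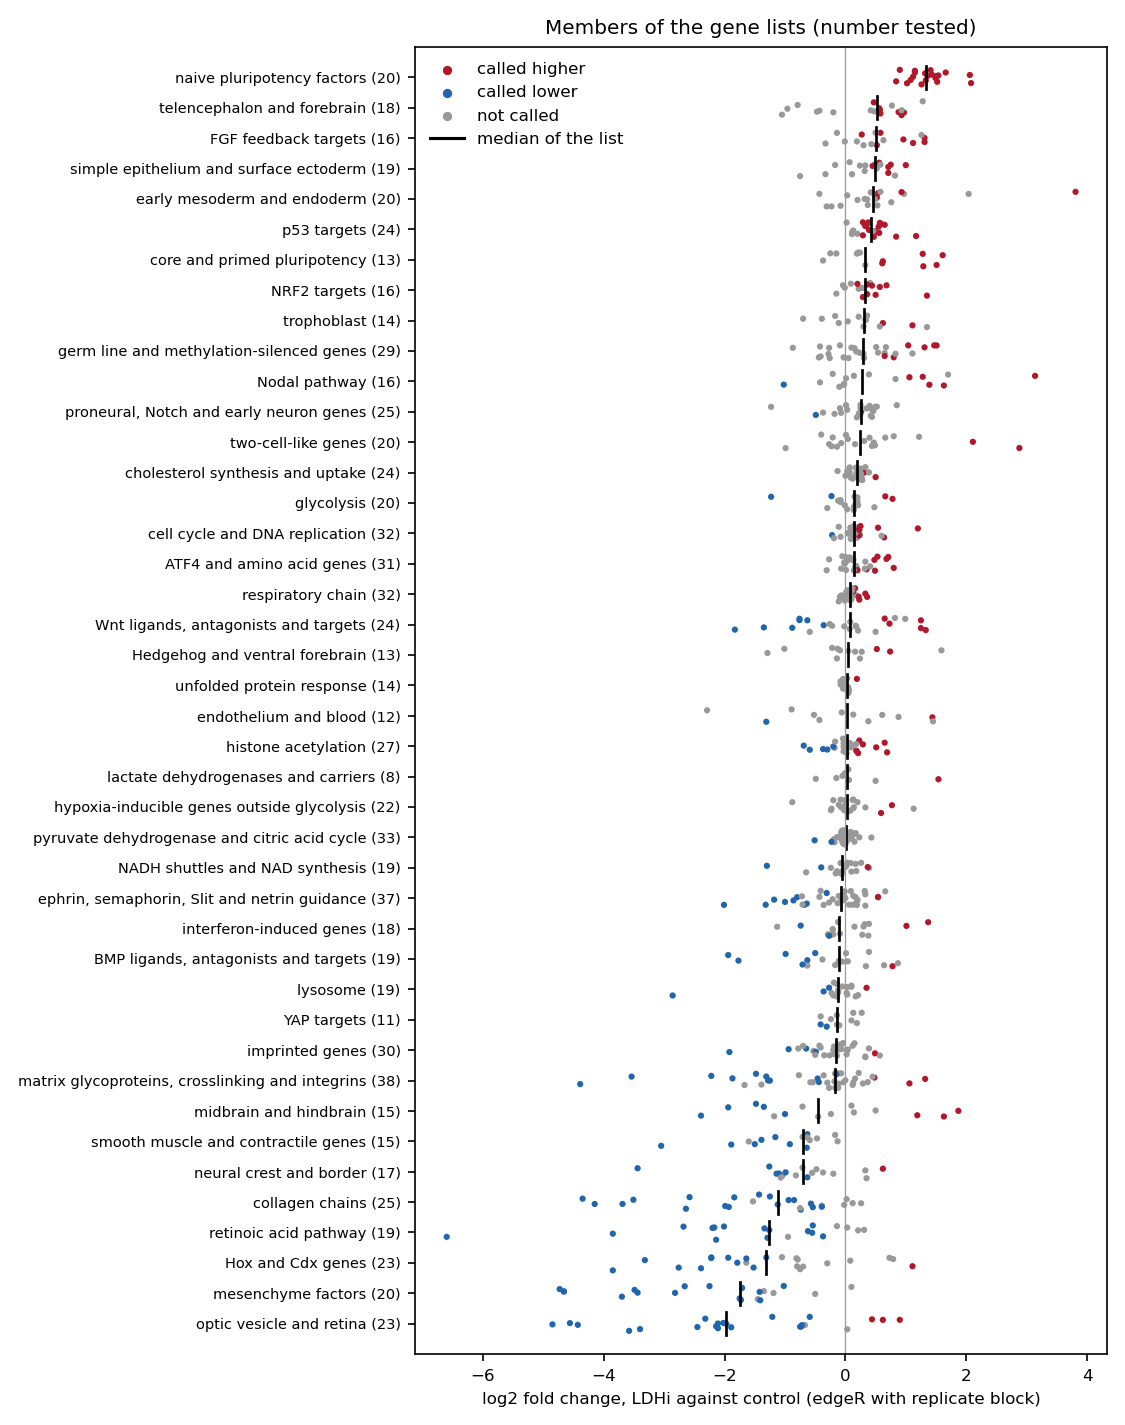
Log2 fold change of LDHi against control for the members of 42 gene lists (points, 1 per gene tested, number in brackets), ordered by the median of the list (black bar). All 20 naive pluripotency factors are right of 0, and the lists of retinoic acid, optic vesicle, mesenchyme, matrix and collagen genes reach furthest to the left.

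The messages of the drug target were not called. Ldha, the main subunit of lactate dehydrogenase in proliferating cells, was at 1034 ± 51.4 CPM in control and 1091 ± 175 in LDHi (SD, n = 4 each), with a log2 fold change of 0.06 ± 0.09 (SE, adjusted p = 0.694). Ldhb, the other main subunit, gave -0.01 ± 0.08 (adjusted p = 0.93). The lactate carriers Slc16a1 and Slc16a3 gave -0.05 ± 0.10 and -0.15 ± 0.16 (adjusted p = 0.792 and 0.565). In the list of lactate dehydrogenases and carriers (8 tested), Ldhd, a mitochondrial enzyme for D-lactate whose exons overlap those of Znrf1, was the single call, at 0.404 ± 0.194 CPM in control and 1.27 ± 0.682 in LDHi (log2 1.54 ± 0.33, adjusted p = 0.00964). That call was lost without the block (adjusted p = 0.0865) and without replicate 2 (adjusted p = 0.0568).

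Short promoter windows of single genes from the rising groups are shown first, chosen because each holds a binding word of a regulator of its group. They do not stand for the groups: ATGCAAAT was in 1 of 11 naive pluripotency factors with a window (Zfp42) and the p53 word in 1 of 19 p53 targets (Cdkn1a). The windows are from RefSeq (GRCm38.p6) and run 5′ to 3′ on the gene's strand from 250 bases before the start to 50 after it. Fkbp6, Hormad1, Stk31 and Cdkn1a have 2 windows each. The window shown was picked by its count of matches, then by position, so its start need not be the main start of the gene. Capitals mark ATGCAAAT (the octamer bound by Oct4-type factors) in Zfp42. In the germ line genes they mark CACGTG (an E-box) in Fkbp6, Hormad1 and Stk31, and TTCCCGC (an E2F-type word) in Hormad1 and Rpl10l. They also mark CATG, 6 bases and CATG (2 cores of the p53 element) in Cdkn1a, and TGACNNNGC (the core of the antioxidant response element) in Gclm. Each word was searched on both strands.
Zfp42 (chr8:43306960-43307259, minus strand): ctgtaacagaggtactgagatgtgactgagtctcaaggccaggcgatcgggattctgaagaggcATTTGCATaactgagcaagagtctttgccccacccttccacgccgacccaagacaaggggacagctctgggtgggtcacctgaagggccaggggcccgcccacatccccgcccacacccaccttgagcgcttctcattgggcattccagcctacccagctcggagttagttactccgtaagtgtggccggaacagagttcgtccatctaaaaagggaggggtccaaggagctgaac
Fkbp6 (chr5:135349864-135350163, minus strand): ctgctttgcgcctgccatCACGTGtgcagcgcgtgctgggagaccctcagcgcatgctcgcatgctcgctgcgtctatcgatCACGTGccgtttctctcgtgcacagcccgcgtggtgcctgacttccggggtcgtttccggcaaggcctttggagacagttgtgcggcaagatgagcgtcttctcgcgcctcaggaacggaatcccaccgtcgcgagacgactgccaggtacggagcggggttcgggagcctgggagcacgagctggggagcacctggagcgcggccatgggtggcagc
Hormad1 (chr3:95559427-95559726, plus strand): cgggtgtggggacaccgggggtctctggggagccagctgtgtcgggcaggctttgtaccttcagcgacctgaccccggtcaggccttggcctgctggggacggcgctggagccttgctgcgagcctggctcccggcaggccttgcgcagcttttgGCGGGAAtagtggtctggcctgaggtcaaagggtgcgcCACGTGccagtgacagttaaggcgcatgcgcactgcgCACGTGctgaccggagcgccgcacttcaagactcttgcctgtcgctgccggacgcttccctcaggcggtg
Stk31 (chr6:49395289-49395588, plus strand): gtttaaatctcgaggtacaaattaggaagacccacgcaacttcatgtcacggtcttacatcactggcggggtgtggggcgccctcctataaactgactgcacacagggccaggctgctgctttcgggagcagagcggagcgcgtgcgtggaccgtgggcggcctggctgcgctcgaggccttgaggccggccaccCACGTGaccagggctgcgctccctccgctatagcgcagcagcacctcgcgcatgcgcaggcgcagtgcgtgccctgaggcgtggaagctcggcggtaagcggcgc
Rpl10l (chr12:66284352-66284651, minus strand): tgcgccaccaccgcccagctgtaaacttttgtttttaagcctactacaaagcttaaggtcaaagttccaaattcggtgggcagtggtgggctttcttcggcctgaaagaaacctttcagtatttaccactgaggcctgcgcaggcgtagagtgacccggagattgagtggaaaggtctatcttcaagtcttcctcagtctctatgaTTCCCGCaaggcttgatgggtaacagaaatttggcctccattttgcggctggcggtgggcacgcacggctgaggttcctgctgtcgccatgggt
Cdkn1a (chr17:29090729-29091028, plus strand): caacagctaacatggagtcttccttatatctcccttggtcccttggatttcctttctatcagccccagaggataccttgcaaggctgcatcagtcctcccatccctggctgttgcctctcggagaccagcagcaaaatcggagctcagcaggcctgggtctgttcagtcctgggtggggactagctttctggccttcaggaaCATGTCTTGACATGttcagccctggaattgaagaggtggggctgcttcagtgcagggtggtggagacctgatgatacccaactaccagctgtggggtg
Gclm (chr3:122245307-122245606, plus strand): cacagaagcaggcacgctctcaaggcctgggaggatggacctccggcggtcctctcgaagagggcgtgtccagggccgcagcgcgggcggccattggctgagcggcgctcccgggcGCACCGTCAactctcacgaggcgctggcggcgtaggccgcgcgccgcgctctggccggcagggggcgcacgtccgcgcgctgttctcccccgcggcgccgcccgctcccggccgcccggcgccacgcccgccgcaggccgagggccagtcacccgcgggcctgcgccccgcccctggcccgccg

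A window was found by symbol for 12381 of the genes tested. A gene can have several windows and counts as a holder if any of them holds the word. Among all windows, ATGCAAAT stood in 1.74%, CACGTG in 7.15%, TTCCCGC in 4.6%, the pair of CATG words in 0.712% and TGACNNNGC in 12.4%. By gene, CACGTG was in 11.3% of all genes tested, in 13.6% of those higher and in 9.86% of those lower, and TTCCCGC was in 9.45%, 10.4% and 8.19%. In the germ line list 13 of the 26 genes with a window held CACGTG and 10 held TTCCCGC. Of the 13 with CACGTG 3 were called higher, and of all 26 with a window 5 were. TGACNNNGC stood in 6 of 13 NRF2 targets with a window and in 16.4% of all genes tested. The words TCAAGGTCA (Esrrb and Nr5a2 type) and GTTCA repeated after 5 bases were also searched. They were in 0.423% and 0.0396% of windows and in no window of the naive pluripotency or retinoic acid lists. The spacing of the second word is not that of the usual retinoic acid receptor element, so its absence says nothing of such elements. These matches are descriptions of sequence and not sites of binding.

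Naive pluripotency factors, the genes that hold ESCs in their ground state and are normally silenced as cells enter the neural lineage, were higher as a group. All 20 members tested were called higher, with a median log2 fold change of 1.34 (0.84 to 2.08). Of these, 16 had no overlap between the groups, against 4.26% of all genes in that direction, and 13 were called without the block. All 20 calls held without any single library. Their summed level was 372 to 710 CPM in control libraries and 942 to 1711 in LDHi libraries. Calls among the Platr, FGF, Nodal, germ line and epithelial genes given next were mostly higher too, and the part of this level in those changes was not tested. The list was put together with earlier results of these data known and its count is not independent evidence of a direction.

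Nr5a2, an orphan nuclear receptor that can replace Oct4 in reprogramming, was at 7.52, 14.1, 13.2 and 13.3 CPM in control 1 to 4 and at 25, 37, 48.7 and 40.7 CPM in LDHi 1 to 4 (log2 1.66 ± 0.11, adjusted p = 5.63e-05). The groups did not overlap. Tdh, the threonine dehydrogenase that feeds 1-carbon metabolism in mouse ESCs, went from 16.4, 44.3, 25.8 and 44.4 CPM to 88.6, 164, 165 and 114 CPM (log2 2.08 ± 0.26, adjusted p = 0.000621), again with no overlap. The orphan receptor Nr0b1 (log2 2.06 ± 0.24) and the factors Zfp42 (1.54 ± 0.13), Esrrb (1.50 ± 0.17), Tfcp2l1 (1.33 ± 0.12), Nanog (1.26 ± 0.14) and Klf4 (0.84 ± 0.08) rose with them, with adjusted p of 0.000464, 0.000121, 0.000413, 0.00021, 0.000351 and 0.000182. Tdh shares exon sequence with Gm17232.

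Of 13 core and primed pluripotency genes tested, 6 were higher and 0 lower (median 0.33). Pou5f1, which encodes Oct4, was at 29.2, 81.9, 32 and 36.7 CPM in control and at 90.3, 176, 151 and 96.4 CPM in LDHi (log2 1.61 ± 0.20, adjusted p = 0.000595). Every pair rose, but control 2 reached close to the lowest LDHi libraries, and without the block the gene was not called (adjusted p = 0.0885). Sox2, shared by ESCs and neural progenitors, rose from 401 ± 68.6 to 610 ± 49.9 CPM (log2 0.62 ± 0.05, adjusted p = 0.000112). L1td1, an RNA-binding protein of pluripotent cells, and Sall4 rose by 1.51 ± 0.18 and 0.61 ± 0.09 on the log2 scale (adjusted p = 0.000594 and 0.00126), the second not without the block (0.222). Platr genes, long noncoding RNAs named for their association with pluripotency, were looked at after their values were seen: 14 were tested, 5 were higher and 0 lower (median 1.03). Platr7, Platr27, Platr3, Platr10 and Platr14 rose by 2.27 ± 0.37, 2.03 ± 0.24, 1.84 ± 0.20, 1.65 ± 0.29 and 1.12 ± 0.18 on the log2 scale, with adjusted p of 0.00243, 0.000498, 0.000351, 0.00317 and 0.00196. None of these 5 was called without the block (adjusted p = 0.0552 to 0.148).

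**Figure D2:**
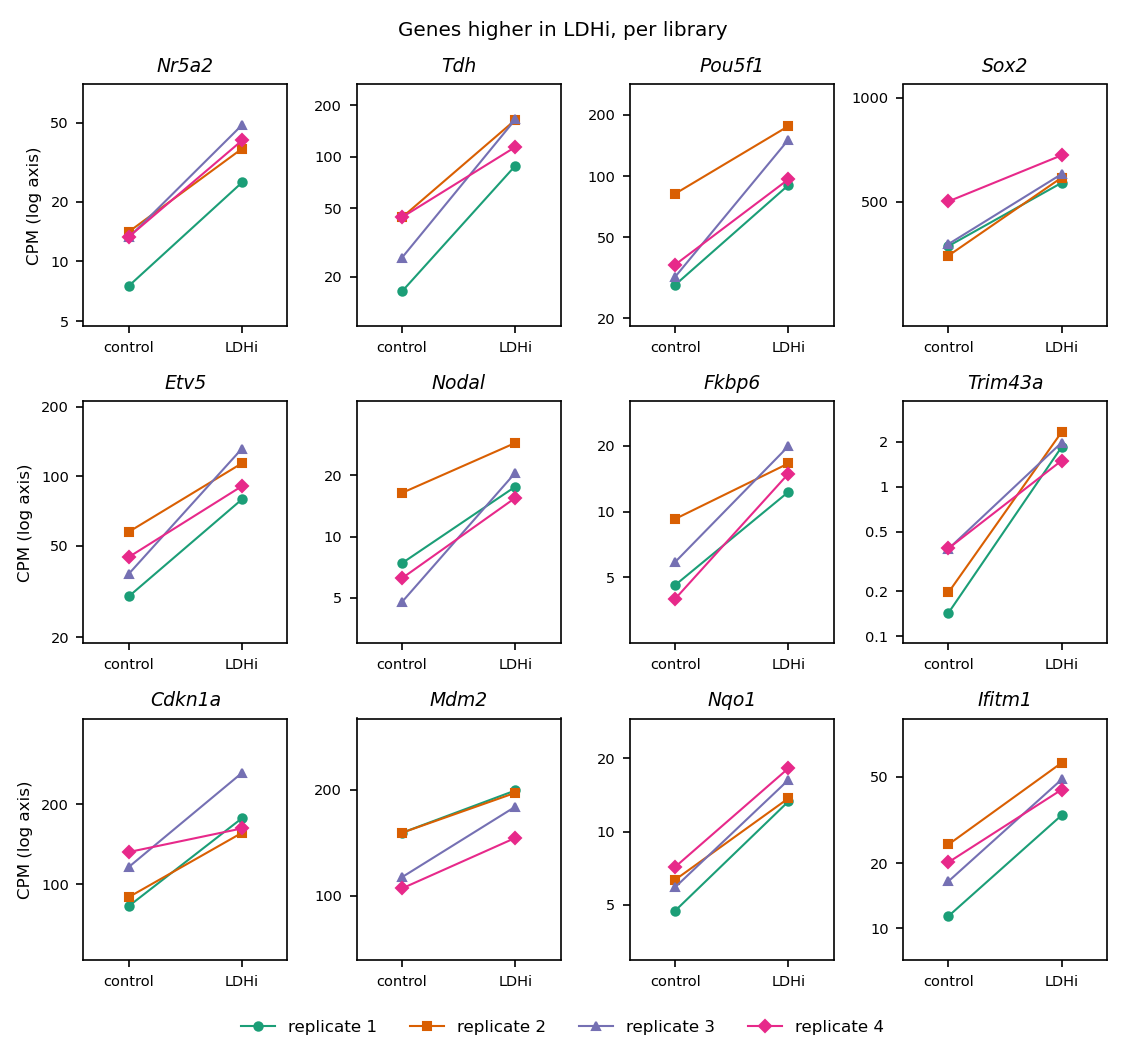
CPM per library (log axis) of 12 genes higher in LDHi, with a line joining the control and the LDHi library of the same replicate number. Every line rises, and Nr5a2 and Nqo1 show LDHi libraries above all control libraries, whereas for Mdm2 replicates 1 and 2 start higher than replicates 3 and 4.

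Signals that ESCs use to leave or keep this state changed in different ways. Of 16 FGF feedback targets, which are induced by ERK signaling, 7 were higher and 0 lower (median 0.51). Etv5, an ETS factor of the FGF pathway, was at 30.1, 57.4, 37.7 and 44.6 CPM in control and at 79.5, 114, 132 and 90.7 CPM in LDHi (log2 1.31 ± 0.14, adjusted p = 0.000367), with no overlap. Etv4 (1.31 ± 0.20, adjusted p = 0.00178) and the inhibitor Spry1 (0.96 ± 0.14, adjusted p = 0.00147) also rose. Dusp6, an ERK phosphatase, rose by 0.52 ± 0.11 (adjusted p = 0.0097), a call lost without replicate 1 (adjusted p = 0.0548). The count of 7 fell to 4 without replicate 1 or without replicate 3, and without the block Etv4 and Etv5 were the 2 calls.

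In the Nodal pathway 5 of 16 genes were higher and 1 lower (median 0.27). The ligand Nodal was at 7.39, 16.4, 4.76 and 6.23 CPM in control and at 17.6, 28.9, 20.6 and 15.5 CPM in LDHi (log2 1.39 ± 0.22, adjusted p = 0.00185). Control 2 lay above LDHi 4, so the groups overlapped although every pair rose. The ligand Gdf3 rose by 1.63 ± 0.19 on the log2 scale (adjusted p = 0.000498), and the coreceptor Tdgf1, the cofactor Foxh1 and the antagonist Cer1 were the other higher calls. None of them was called without the block. Mixl1, a primitive streak factor, rose by 3.81 ± 0.81 (adjusted p = 0.009) from 0.0856 ± 0.133 to 1.12 ± 0.939 CPM, at levels of a few counts in control libraries, and was not called without the block (0.0862). In the list of early mesoderm and endoderm genes 4 of 20 were higher (Mixl1, Foxa2, Sox17 and Hnf4a), 7 without control 2 and 0 without the block. The count of 4 stands beside 9.85% of all genes.

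Some germ line genes, which somatic cells keep methylated and silent, were higher. Of 29 tested, 6 were higher and 0 lower (median 0.29), a count that became 10 without LDHi 2 and 3 without replicate 4. The median was -0.03 in replicates 1 and 2 and 0.67 in replicates 3 and 4. Fkbp6, a cofactor of piRNA loading, was at 4.61, 9.25, 5.88 and 3.99 CPM in control and at 12.3, 16.6, 19.9 and 14.9 CPM in LDHi (log2 1.47 ± 0.21, adjusted p = 0.00119). The ribosomal protein gene Rpl10l, which replaces an X-linked copy in meiosis, rose from 4.83 ± 1.96 to 13 ± 1.58 CPM (log2 1.51 ± 0.18, adjusted p = 0.000582). Both were without overlap and were also called without the block (adjusted p = 0.0217 and 0.0242). Hormad1, of the meiotic chromosome axis, and Stk31 rose by 1.31 ± 0.23 and 1.04 ± 0.24 on the log2 scale (adjusted p = 0.00312 and 0.0119), neither of them without the block (0.186 and 0.133), and Stk31 not without replicate 4 (0.0781). Of 20 genes of the two-cell-like state, 2 were higher, the paralogs Trim43a and Trim43b, a share near the 9.85% of all genes. Trim43a was at 0.143, 0.196, 0.384 and 0.387 CPM in control and at 1.85, 2.33, 1.98 and 1.5 CPM in LDHi (log2 2.88 ± 0.37, adjusted p = 0.000712). Trim43b (2.11 ± 0.51, adjusted p = 0.0157) lost its call without control 1 (adjusted p = 0.052) or without the block (0.0987), and near-identical copies may share reads.

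Of 24 targets of p53, the factor that answers DNA damage and metabolic stress, 18 were higher and 0 lower, and all 24 had a log2 fold change above 0 (median 0.42, 0.02 to 1.17). The shifts were small, with a median of 0.35 in replicates 1 and 2 and 0.51 in replicates 3 and 4. Cdkn1a, which encodes the cell cycle inhibitor p21, was at 82.7, 89.4, 116 and 132 CPM in control and at 177, 156, 262 and 162 CPM in LDHi (log2 0.84 ± 0.12, adjusted p = 0.00109), with no overlap. Mdm2, the ubiquitin ligase that limits p53, went from 151, 151, 113 and 105 CPM to 199, 196, 179 and 146 CPM (log2 0.47 ± 0.06, adjusted p = 0.000949), with every pair higher and control 1 and 2 above LDHi 4. Phlda3 (0.59 ± 0.07), Trp53inp1 (0.57 ± 0.07), Sesn2 (0.49 ± 0.06) and Bax (0.48 ± 0.07) rose with adjusted p of 0.000437, 0.000754, 0.000487 and 0.00103. The calls rest on the pairing: 0 of the 24 were called without the block, where Cdkn1a had an adjusted p of 0.0502 and Sesn2 one of 0.573. With single libraries left out, 12 to 17 were called.

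NRF2 targets, the genes of glutathione and NADPH supply, were higher in 9 of 16 cases and lower in 0 (median 0.32). Nqo1, a quinone reductase that uses NADH or NADPH, was at 4.73, 6.34, 5.91 and 7.16 CPM in control and at 13.3, 13.7, 16.3 and 18.2 CPM in LDHi (log2 1.35 ± 0.11, adjusted p = 0.000112), with no overlap and with a call without the block (0.00949). The 2 subunits of glutamate-cysteine ligase rose, Gclm by 0.68 ± 0.10 and Gclc by 0.50 ± 0.07 on the log2 scale (adjusted p = 0.00175 and 0.00109), neither of them without the block (0.0879 and 0.0738). Gsta4, a glutathione transferase for lipid aldehydes, and Pgd, of the pentose phosphate pathway, rose by 0.57 ± 0.07 and 0.36 ± 0.05 (adjusted p = 0.000477 and 0.00109) and were also called without the block (0.0463 and 0.0333). Between 7 and 10 were called without single libraries.

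Of 31 ATF4 targets and amino acid genes, 9 were higher and 0 lower (median 0.14), and 0 without the block. Slc7a1, a carrier of basic amino acids, was at 182, 202, 56.6 and 58.9 CPM in control and at 258, 250, 84.6 and 84 CPM in LDHi (log2 0.48 ± 0.06, adjusted p = 0.000693). Here the set of replicates made the larger difference and the rise stood within each pair. The pseudokinase Trib3 behaved alike, at 23.7, 25.1, 6.03 and 4.84 CPM in control and 32.2, 32.3, 12.4 and 10.3 CPM in LDHi (log2 0.71 ± 0.14, adjusted p = 0.00562). Only 4 members were called without LDHi 3 or without control 3, and 5 without LDHi 4. In the list of the unfolded protein response 1 of 14 genes was higher, Creld2 (median 0.03), beside 9.85% of all genes. Among 32 cell cycle and replication genes 10 were higher and 1 lower, mostly by small steps (median 0.14). The largest of them was Cdkn2a, which encodes p16 and p19Arf, from 3.64 ± 2.1 to 7.76 ± 2.09 CPM (log2 1.20 ± 0.22, adjusted p = 0.00469, without the block 0.196). The count of 10 became 5 without control 3 and 6 without control 1 or LDHi 4.

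Interferon-induced genes did not move together (18 tested, 2 higher, 2 lower, median -0.10), beside 9.85% higher and 10.1% lower of all genes. Ifitm1, an interferon-induced membrane protein, was at 11.4, 24.4, 16.5 and 20.2 CPM in control and at 33.3, 58.1, 48.7 and 43.7 CPM in LDHi (log2 1.37 ± 0.10, adjusted p = 8.94e-05), and its neighbor Ifitm3 rose by 1.01 ± 0.11 (adjusted p = 0.00042). B2m, the light chain of MHC class I, fell by 0.74 on the log2 scale (SE 0.08, adjusted p = 0.00042), and H2-D1 was the other lower call. Ifitm1, Ifitm3 and B2m were also called without the block. Epithelial genes were higher in 7 of 19 cases and lower in 0 (median 0.49). The adhesion molecules Cdh1 and Epcam rose by 0.71 ± 0.09 and 0.71 ± 0.12 (adjusted p = 0.00063 and 0.00273), and Grhl3, a factor of surface ectoderm, went from 6.94 ± 1.47 to 14 ± 3.57 CPM (adjusted p = 0.00325). The count of 7 became 3 without LDHi 4 or control 3 and 4 without LDHi 3, and Cdh1 and Epcam are also expressed by pluripotent cells. Without the block Grhl3 was the single call of the list (adjusted p = 0.0345). Among lists of other tissues, 1 of 12 endothelium and blood genes was higher (Pecam1) and 1 lower (Kdr), with 3 lower without control 2, 2 of 14 trophoblast genes were higher (Cdx2 and Tfap2c), and 2 of 13 Hedgehog and ventral forebrain genes were higher. The Hedgehog count became 3 without control 2, 1 without any other single library and 0 without the block. Over all genes 9.85% were higher and 10.1% lower, and the counts of these lists of other tissues are not far from those shares.

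Among the genes with the largest rises and no overlap between groups were some that belong to none of these lists. Krt23, a keratin, rose by 2.71 ± 0.48 on the log2 scale (adjusted p = 0.00362), the myosin heavy chain Myh13 by 2.20 ± 0.38 (0.00306), Aoah, a hydrolase of bacterial lipopolysaccharide, by 2.14 ± 0.21 (0.000274), the oocyte NLRP-family gene Nlrp4c by 2.10 ± 0.35 (0.0027) and the bHLH repressor Msc by 2.01 ± 0.30 (0.0014). Their LDHi means were 2.43 to 5.47 CPM. All 5 were also called without the block. Klf8, a zinc finger factor, was among the 6 higher genes with the smallest adjusted p, at 14.3 ± 2.44 CPM in control and 28 ± 5.98 in LDHi (log2 0.97 ± 0.08, adjusted p = 0.000103).

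Genes of the forebrain outside the eye were partly higher. Of 18 telencephalon and forebrain genes, 7 were higher and 0 lower (median 0.52), and 0 without the block. Dmrta1, a factor of dorsal telencephalic progenitors, rose from 15.8 ± 2.96 to 31.5 ± 10.4 CPM (log2 0.97 ± 0.15, adjusted p = 0.00189). Lhx5 rose by 0.93 ± 0.19 (adjusted p = 0.00797), a call lost without replicate 1 (adjusted p = 0.0598). Along the midbrain and hindbrain 3 genes rose and 5 fell of 15 tested. The midbrain-hindbrain boundary genes Pax5, En2 and En1 were the higher calls, with Pax5 at 3.84 ± 1.11 CPM in control and 13.7 ± 5.36 in LDHi (log2 1.87 ± 0.40, adjusted p = 0.00895) and En2 at 14.3 ± 12.3 and 35.8 ± 11.2 (log2 1.63 ± 0.39, adjusted p = 0.0151). Pax5 was not called without replicate 3 (adjusted p = 0.0606) and En2 not without LDHi 3 (0.0597), and without LDHi 3 the count of 3 became 1, with En2 not called without the block either (0.211). Among the lower calls were Wnt1, Hoxa2, Lmx1b and Hoxb1. Wnt1, the ligand of the dorsal midbrain, fell by 1.35 on the log2 scale (SE 0.19, adjusted p = 0.00108), and Hoxa2 by 1.94 (SE 0.36, 0.00455), of which Hoxa2 was also called without the block (0.0448).

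Genes of the head mesenchyme fell together. Of 20 mesenchyme factors tested, 15 were lower and 0 higher (median -1.74). Of the 20, 12 had no overlap between the groups, against 5.41% of all genes in that direction, and 8 were called without the block. Alx1, a homeobox factor of the frontonasal and periocular mesenchyme, was at 6.53, 4.09, 10.2 and 23.4 CPM in control and at 0.48, 0.301, 0.138 and 0.768 CPM in LDHi (log2 -4.66 ± 0.61, adjusted p = 0.000799). Its relative Alx4 had a log2 fold change of -4.66 (SE 0.73, adjusted p = 0.00195). Twist1, a bHLH factor of mesenchyme and neural crest, was at 21.6, 8.86, 39.5 and 94.5 CPM in control and at 3.89, 3.01, 1.84 and 5.14 CPM in LDHi (log2 -3.44 ± 0.68, adjusted p = 0.00604). For these genes control 4 was the highest control library and control 2 the lowest, with all LDHi libraries below both. Foxc2, a forkhead factor of periocular mesenchyme, had a log2 fold change of -3.49 (SE 0.56, adjusted p = 0.00211), Prrx2 one of -2.25 (SE 0.31, 0.001), Prrx1 one of -1.75 (SE 0.26, 0.00143) and the receptor Pdgfrb one of -1.41 (SE 0.21, 0.00139), where Prrx1 and Pdgfrb were not called without the block (0.0648 and 0.0597). The count of 15 was 11 to 15 without single libraries. The summed level of the list was 210 to 539 CPM in control libraries and 128 to 175 in LDHi libraries. Calls among the matrix, contractile and retinoic acid genes given next were mostly lower too, and the part of this level in those changes was not tested.

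Collagens fell as well. Of 25 collagen chains, 18 were lower and 0 higher (median -1.12), 9 without the block. Col9a1, whose short form is made by eye epithelia, was at 389, 185, 216 and 131 CPM in control and at 24.3, 5.06, 23.4 and 32.8 CPM in LDHi (log2 -3.51 ± 0.40, adjusted p = 0.000433), with no overlap. Col8a1 went from 18.1, 0.936, 13.1 and 16.9 CPM to 0.672, 0.129, 0.138 and 1.38 CPM (log2 -4.35 ± 0.39, adjusted p = 0.000169), and control 2 lay far below the other controls and inside the LDHi range. Col3a1, a fibrillar chain of loose mesenchyme, spread from 19.1 to 307 CPM over the control libraries, where control 4 was the highest, and was at 1.24 to 9.11 CPM in LDHi (log2 -4.15 ± 0.88, adjusted p = 0.00899, without replicate 4 adjusted p = 0.0655). Col11a1 fell by 0.94 (SE 0.10, adjusted p = 0.000345, without the block 0.0826). The count of 18 became 9 without replicate 3 and 10 without replicate 4. Of 38 matrix glycoproteins, crosslinking enzymes and integrins, 11 were lower and 3 higher (median -0.18). Fbn2, fibrillin of embryonic microfibrils, was at 189, 129, 341 and 193 CPM in control and 48.7, 30.7, 68.2 and 85.3 CPM in LDHi (log2 -1.87 ± 0.16, adjusted p = 0.000121), the lysyl oxidases Loxl1 and Loxl3 fell by 1.28 and 1.25 (SE 0.15 and 0.18, adjusted p = 0.00051 and 0.00116), and the proteoglycan Lum fell by 4.39 (SE 0.70, adjusted p = 0.00211, without the block 0.0759). The other way, Spp1, secreted osteopontin, and Itga1, a collagen-binding integrin, rose by 1.06 ± 0.15 and 1.32 ± 0.23 (adjusted p = 0.00113 and 0.00325, without the block 0.0603 and 0.0202).

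All 15 smooth muscle and contractile genes tested had a log2 fold change below 0 (median -0.71), and 8 were called lower, 0 without the block. Acta2, smooth muscle actin, was at 33.3, 32.6, 58 and 15 CPM in control and at 1.94, 2.91, 16.2 and 2.23 CPM in LDHi (log2 -3.05 ± 0.31, adjusted p = 0.00029). LDHi 3 lay above control 4, so the groups overlapped while each pair fell, and the call was lost without the block (adjusted p = 0.103). Cald1, Cnn2 and Tpm2, which bind actin, fell by 0.64, 0.92 and 1.16 (SE 0.07, 0.10 and 0.13, adjusted p = 0.00029, 0.000351 and 0.000412). Of 11 YAP targets 2 were lower, beside 10.1% of all genes, and the count became 4 without control 4, 3 without LDHi 4 or control 2 and 1 without LDHi 1. In the neural crest list 6 of 17 were lower and 1 higher (median -0.71), with Ets1 lower by 1.26 (SE 0.21, adjusted p = 0.00265, also called without the block) and Dlx3 by 1.14 (SE 0.18, adjusted p = 0.00198, without the block 0.353).

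**Figure D3:**
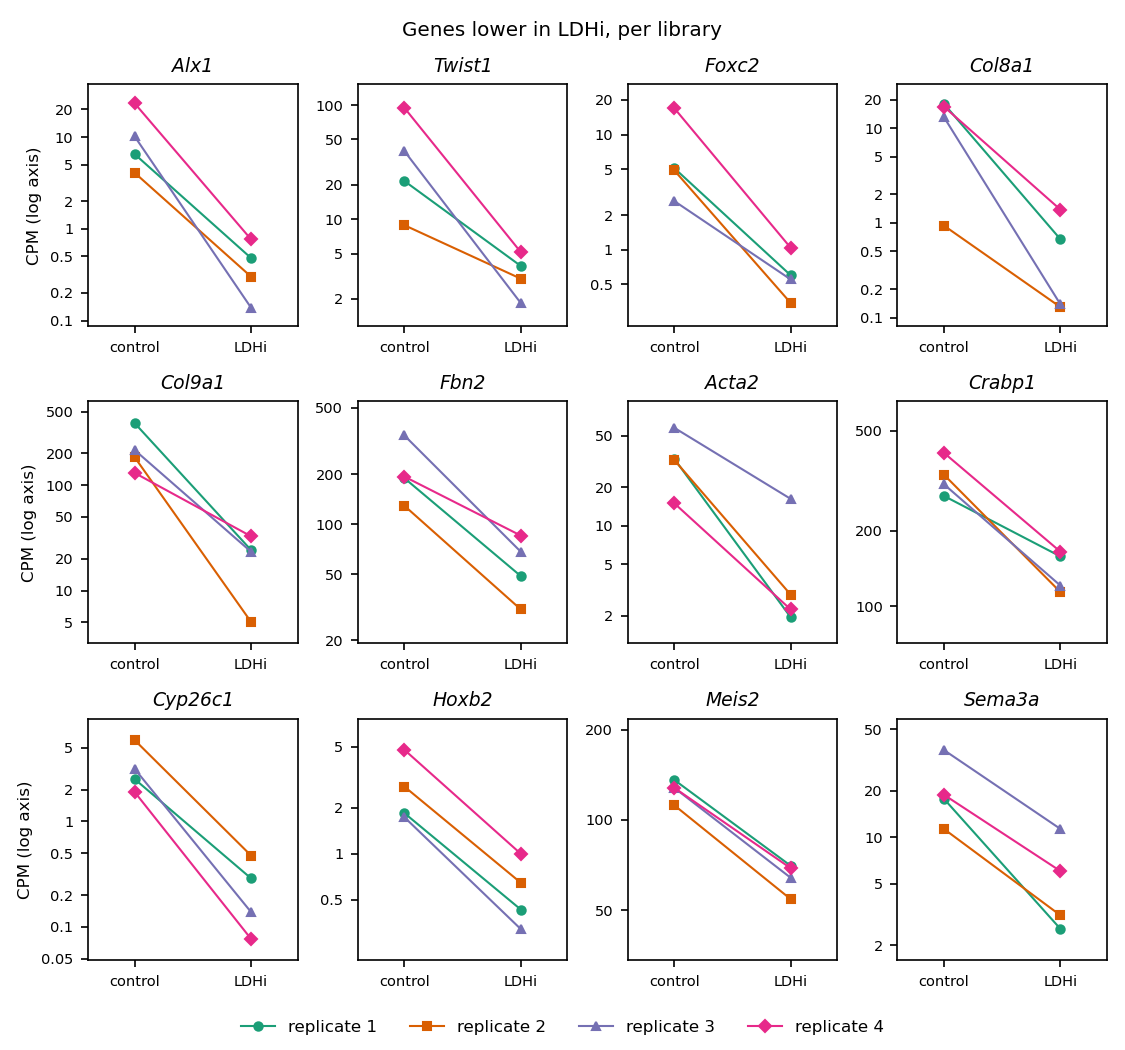
CPM per library (log axis) of 12 genes lower in LDHi, with a line joining the control and the LDHi library of the same replicate number. Every line falls, control 2 starts at 0.936 CPM for Col8a1 against 13.1 to 18.1 in the other controls, and LDHi 3 stays at 16.2 CPM for Acta2.

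Hox and Cdx genes, which mark the axis behind the forebrain, split. Of 23 tested, 11 Hox genes were lower and Cdx2 was higher (median -1.31), 6 and 1 of them also without the block. Levels were low in all libraries, with a summed level of 42 to 80 CPM in control and 33 to 57 in LDHi. Hoxb3 was at 1.17, 1.28, 1.5 and 2.63 CPM in control and at 0.264, 0.108, 0 and 0.307 CPM in LDHi (log2 -3.32 ± 0.51, adjusted p = 0.00184). Hoxb2 fell by 2.22 (SE 0.34, adjusted p = 0.00173), and both share exon sequence with Hoxb3os. Hoxb4 and Hoxc4 fell by 1.64 and 1.31 (SE 0.26 and 0.22, adjusted p = 0.00202 and 0.00306), neither without the block (0.169 and 0.133). Cdx2, a factor of the posterior axis and of trophoblast, was at 6.69 ± 0.888 CPM in control and 14.4 ± 0.936 in LDHi (log2 1.11 ± 0.13, adjusted p = 0.000527), with little spread in either group.

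Retinoic acid, made from retinol by aldehyde dehydrogenases, induces 3′ Hox genes and patterns the ventral eye and the mesenchyme around it. In its pathway 14 of 19 genes were lower and 0 higher (median -1.26), 7 of them without the block. Of the 19, 10 had no overlap, against 5.41% of all genes in that direction. The other 5 were not called, and 3 of the 19 had a log2 fold change above 0. The effect on 5 of the 19 differed between replicates 1 and 2 and replicates 3 and 4, beside 4.1% of all genes. The summed level was 1727 to 1963 CPM in control libraries and 942 to 1131 in LDHi libraries. Stra6, the retinol importer, had a log2 fold change of -2.17 (SE 0.22, adjusted p = 0.000284) and the synthesis enzyme Aldh1a1 one of -6.60 (SE 1.19, adjusted p = 0.00392). Aldh1a1 spread from 1.13 to 142 CPM over the control libraries and was at 0.108 to 0.783 CPM in LDHi. The binding protein Crabp1 was at 275, 334, 306 and 408 CPM in control and 158, 114, 121 and 165 CPM in LDHi (log2 -1.26 ± 0.13, adjusted p = 0.000284). The receptor Rara fell by 0.62 (SE 0.07, adjusted p = 0.000323). Cyp26c1, a degrading enzyme at low levels, was at 2.52, 5.9, 3.15 and 1.9 CPM in control and at 0.288, 0.474, 0.138 and 0.0768 CPM in LDHi (log2 -3.85 ± 0.38, adjusted p = 0.000274).

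Some of the smallest adjusted p among the falls belonged to Meis2, Foxp1, Wdr86, Mitf, Pkdcc and Rcn3. Meis2, a homeobox cofactor of eye, brain and limb, was at 136, 112, 128 and 128 CPM in control and at 70.4, 54.5, 64.2 and 69.1 CPM in LDHi (log2 -0.97 ± 0.05, adjusted p = 3.36e-05). Foxp1, a forkhead repressor, fell by 0.97 (SE 0.06, adjusted p = 4.59e-05), Wdr86 by 2.28 (SE 0.14, 4.59e-05), Mitf, the factor of pigment epithelium, by 2.14 (SE 0.13, 4.59e-05), Pkdcc, a secreted kinase, by 1.32 (SE 0.09, 5.63e-05) and Rcn3, a calcium-binding protein of the secretory pathway, by 0.91 (SE 0.06, 6.36e-05). All of these were also called without the block. Optic vesicle and retina genes as a list were lower in 18 of 23 cases and higher in 3 (median -1.97). Without the block 9 were lower and 1 higher. The median was -2.21 in replicates 1 and 2 and -1.15 in replicates 3 and 4. Of the 23 genes, 8 differed between these sets, beside 4.1% of all genes.

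Of 37 ephrin, semaphorin, Slit and netrin guidance genes, 9 were lower and 1 higher (median -0.07), and 2 and 0 without the block. The counts of this list and of the BMP and Wnt lists below stand beside 10.1% lower and 9.85% higher of all genes. Sema3a, a repellent for axons and crest cells, was at 17.7, 11.3, 36.6 and 18.8 CPM in control and at 2.55, 3.12, 11.3 and 6.03 CPM in LDHi (log2 -2.01 ± 0.22, adjusted p = 0.00038), with LDHi 3 level with control 2, and was not called without the block (0.0805). Sema5a fell by 1.18 (SE 0.12, adjusted p = 0.000345) and Efna5, a repellent of retinal axons, by 0.86 (SE 0.11, adjusted p = 0.000753, without the block 0.272). Among 19 BMP genes 6 were lower and 1 higher, with the ligand Bmp7 lower by 0.63 (SE 0.08, adjusted p = 0.000782), the antagonist Grem1 by 1.77 (SE 0.31, 0.00352) and the effector Smad9 by 1.94 (SE 0.39, 0.00675), none of them without the block (0.115, 0.198 and 0.214). The count of 6 became 3 without LDHi 3, LDHi 4 or control 3. Among 24 Wnt genes 7 were lower and 5 higher, and 1 and 0 without the block. The antagonists Sfrp1 and Sfrp2 fell by 0.88 and 0.63 (SE 0.14 and 0.11, adjusted p = 0.00186 and 0.004), and Notum, a Wnt deacylase that Wnt signaling induces, rose by 1.25 ± 0.22 (adjusted p = 0.00376), where Sfrp2 and Notum were not called without the block (0.0794 and 0.0728). The 5 higher calls became 2 without control 1, LDHi 1 or LDHi 2 and 3 without control 2. Of 30 imprinted genes 4 were lower and 1 higher, with the growth factor Igf2 lower by 1.92 (SE 0.36, adjusted p = 0.00456), the noncoding Meg3 by 0.94 (SE 0.20, adjusted p = 0.00835) and the zinc finger gene Plagl1 higher by 0.49 ± 0.07 (adjusted p = 0.0012), none of the 3 without the block (0.258, 0.177 and 0.206). The 4 lower calls stand beside 10.1% of all genes and became 8 without LDHi 4. Igf2 and Meg3 share exon sequence with neighboring noncoding genes.

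Over all 4 pairs genes of energy metabolism changed little as groups. The counts of these lists are to be read beside 9.85% higher and 10.1% lower of all genes. Of 20 glycolysis genes 2 were higher and 2 lower (median 0.15). The median was -0.09 in replicates 1 and 2 and 0.35 in replicates 3 and 4, and 4 of the 20 differed between these sets. Their summed level was 7020 to 8015 CPM in control libraries and 6383 to 11078 in LDHi libraries. Eno2, an enolase of neurons, fell by 1.23 (SE 0.15, adjusted p = 0.000673), and Pfkfb3, which makes the activator of phosphofructokinase, rose by 0.66 ± 0.09 (adjusted p = 0.00111, without the block 0.15). Pfkp and Pfkm were the other calls, and higher calls were 4 without LDHi 2 and 5 without control 1. Of 33 genes of pyruvate dehydrogenase and the citric acid cycle, 0 were higher and 2 lower (median 0.01), Suclg2 and Pdk2, the latter a kinase that inhibits pyruvate dehydrogenase, by 0.51 (SE 0.10, adjusted p = 0.00477). In that list 0 genes were called without the block, and 1 to 3 were lower without single libraries. Of 32 respiratory chain genes 6 were higher by small steps (median 0.08), such as Ndufs8 of complex I by 0.36 ± 0.06 (adjusted p = 0.00282, without the block 0.432), and 2 to 6 were called without single libraries. Among 22 hypoxia-inducible genes outside glycolysis 2 were higher, Kdm3a, a histone demethylase, by 0.59 ± 0.06 (adjusted p = 0.000284) and Ndrg1 by 0.77 ± 0.10 (adjusted p = 0.00103), of which Ndrg1 was also called without the block (0.0215), while Vegfa gave -0.20 ± 0.10 (adjusted p = 0.177). The median of the hypoxia list was -0.17 in replicates 1 and 2 and 0.35 in replicates 3 and 4, and 5 of its 22 genes differed between the sets. Cholesterol synthesis genes gave 3 higher calls of 24 (median 0.19), of which 0 were left without LDHi 3 or LDHi 4 and 1 without LDHi 1, LDHi 2, control 1, control 3 or control 4, and 5 were made without control 2. Lysosome genes gave 1 higher and 3 lower of 19 (5 lower without control 3, 2 higher without control 2), and NADH shuttle and NAD synthesis genes 1 higher and 2 lower of 19 (1 to 2 in either direction without single libraries).

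Enzymes of histone acetylation went both ways, with 7 of 27 higher and 5 lower (median 0.02). The acetyltransferases Kat6b and Kat2b rose by 0.65 ± 0.10 and 0.69 ± 0.12 (adjusted p = 0.00161 and 0.00349), and the class II deacetylases Hdac7 and Hdac5 fell by 0.59 and 0.37 (SE 0.07 and 0.06, adjusted p = 0.000532 and 0.00266). Without the block the list gave 2 higher and 2 lower calls, which were these 4 genes. Over all genes, with the block, 9.85% were higher and 10.1% lower. The 5 lower calls became 2 without control 1 or LDHi 1 and 3 without control 2, control 3 or LDHi 3.

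The effect of GNE-140 differed between replicates 1 and 2 and replicates 3 and 4 in 726 genes (4.1% of those tested), by the interaction of treatment and set. The fit without the block gave 0 genes. In that fit 694 of 17721 had an unadjusted p under 0.05, no more than chance gives at that threshold. In 556 of the 726 genes the mean differences had opposite signs, and 47 were called higher and 75 lower over all 4 pairs. Genes of early neurons held many of these: 11 of 25 proneural, Notch and early neuron genes differed, while 1 was higher and 1 lower over all pairs, and the median log2 difference of the list was 0.85 in replicates 1 and 2 and -0.33 in replicates 3 and 4. Tubb3, the tubulin of new neurons, was at 142 and 71.1 CPM in control 1 and 2 and at 359 and 189 CPM in LDHi 1 and 2, but at 106 and 333 CPM in control 3 and 4 and at 104 and 200 CPM in LDHi 3 and 4 (adjusted p of the difference = 0.00983). Map2, of neuronal dendrites, showed a mean log2 difference of 1.66 in the first set and -0.59 in the second (adjusted p = 0.00351). Of 24 Wnt genes 10 differed, among them Wnt7b, with a mean log2 difference of 1.13 in replicates 1 and 2 and 0.31 in replicates 3 and 4 (adjusted p = 0.0284), and of 18 forebrain genes 7, Lhx5 included (1.45 and 0.36, adjusted p = 0.0069). Over all 4 pairs Tubb3 and Map2 were not called, whereas Wnt7b was (log2 0.73 ± 0.15, adjusted p = 0.00861), not without replicate 1 (adjusted p = 0.0593) or without the block (0.213).

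**Figure D4:**
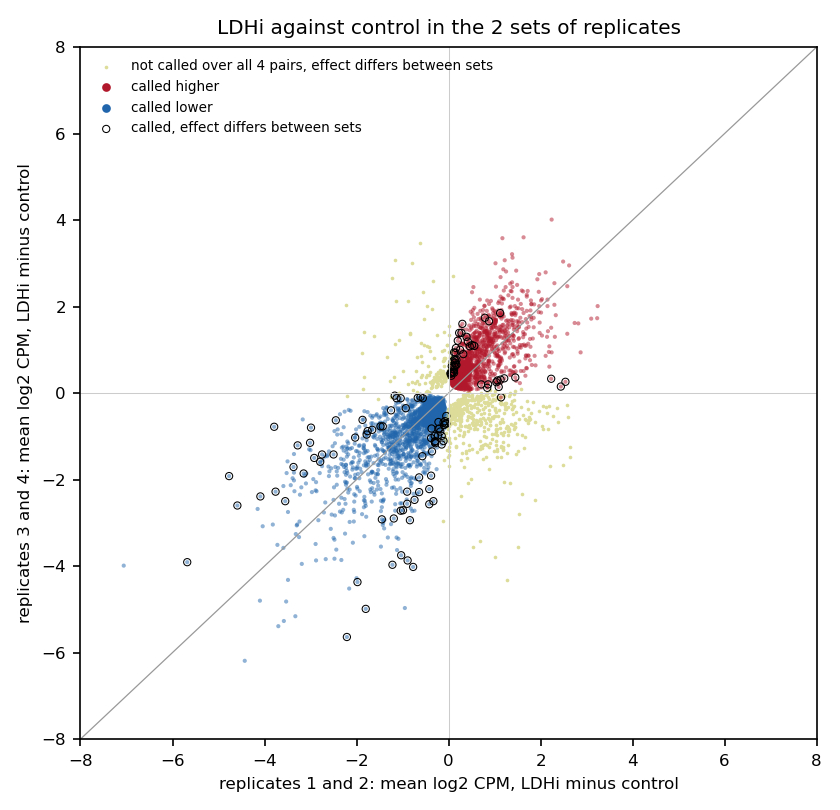
Mean log2 CPM difference of LDHi and control in replicates 1 and 2 (x axis) and in replicates 3 and 4 (y axis) for the called genes and for genes whose effect differed between the sets (open circles, or pale points where the gene was not called over all 4 pairs). Called genes lie in the lower left and upper right, and many of the pale points lie in the lower right, higher in replicates 1 and 2 and lower in replicates 3 and 4.

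Of the 20 naive pluripotency factors, the 24 p53 targets and the 20 mesenchyme factors, 0 differed between the sets. This is near the 4.1% of all genes and does not show that their effect was alike. Their medians were 1.01 and 1.53, 0.35 and 0.51, and -1.35 and -2.41 in the first and second set. The germ line list also gave 0 of 29, with medians of -0.03 and 0.67. The drug target and a carrier were among the differing genes: the mean log2 difference of Ldha was -0.19 in replicates 1 and 2 and 0.32 in replicates 3 and 4 (adjusted p = 0.0142), that of Ldhb -0.24 and 0.21 (0.024) and that of Slc16a1 -0.34 and 0.25 (0.0118). The sets also differ in the cell type that the labels give and in depth, with 41914678 to 48271386 counts in the control and LDHi libraries of the first set and 22174002 to 26192869 in the second, so these cannot be told apart.

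Levels in the LDHi+lactate libraries are given for orientation, with no test. Means of control, LDHi and LDHi+lactate were 12 ± 3.03, 37.8 ± 9.87 and 27 ± 5.12 CPM for Nr5a2, 401 ± 68.6, 610 ± 49.9 and 489 ± 57.1 for Sox2, and 213 ± 90.2, 58.2 ± 23.7 and 148 ± 39.6 for Fbn2. For Acta2 they were 34.7 ± 17.7, 5.81 ± 6.91 and 5.8 ± 5.58, for Mdm2 130 ± 24.6, 180 ± 24.1 and 176 ± 29, and for Nqo1 6.04 ± 1.01, 15.4 ± 2.32 and 13 ± 3.06. The LDHi+lactate mean lay between those of control and LDHi for Nr5a2, Sox2, Fbn2, Mdm2 and Nqo1, and for Mdm2 it was close to that of LDHi. For Acta2 it was level with that of LDHi. These genes are examples and do not define classes of response.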

How the data were processed

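RNA was extracted from mouse eye organoids at day 7 (3000 cells seeded per well), and 50-base single reads were sequenced from mRNA libraries. Per the labels, the authors trimmed reads with cutadapt (version 1.13), used STAR with mm10 for alignment and HTSeq (version 0.6.1p1) to count reads over genes, and deposited raw counts, 1 table per library. The submitters' processing notes also name DESeq2 (version 1.14.1). Annotation release and strand setting: not given in the sources used here. Therefore, reads of overlapping or antisense genes may be shared, which concerns the named genes Pou5f1, Tdh, Spry1, Foxp1, Pax5, Hoxa2, Hoxb2, Hoxb3, Igf2, Meg3, Alx1, Col3a1, Fbn2, Loxl3, Notum, Gclm, Hdac7 and Ldhd, whose exons overlap those of another gene. The labels describe a 12 h pretreatment with lactate for the LDHi+lactate libraries.

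Of 54232 gene identifiers, 54165 (99.9%) were matched to GENCODE vM21 for symbols. Counts of all 12 libraries were fitted in R (version 4.3.3) with edgeR (version 4.0.16, quasi-likelihood test, TMM scaling, filterByExpr), with group and replicate number as terms and 6 residual degrees of freedom. P-values were adjusted by Benjamini-Hochberg over 17721 genes, and standard errors follow from the fold change and the test statistic. Replicates are described in the methods as independent experiments. Deviations from the group means correlated with r of 0.329 to 0.634 in the 12 pairs of libraries with the same number and of -0.22 to 0.197 in the 12 pairs with another number of the same set, so numbers were taken as pairs. CPM were computed from the counts with TMM-scaled library sizes. The effect of the set of replicates was tested by an interaction term. In data simulated for LDHi against control (17207 genes), the test called 70% of genes changed by a log2 of 1 and 93% of those changed by a log2 of 2, with 4 false calls. These counts were drawn from the fitted model itself, with its replicate terms, the trended spread and the same change in every pair. The simulation therefore does not cover genes with a spread off the trend or with an effect that differs between pairs. DESeq2 (version 1.42.0) and the other alternatives are given at the end.

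Named genes were the 12 largest changes in each direction without overlap, up to 4 called members with the smallest adjusted p per list and direction and up to 2 others, the 6 smallest adjusted p in each direction, and the lactate dehydrogenase and carrier genes. Not all that met the rule were printed, and some genes are not reported here. Nanog, Esrrb, Platr3, Platr10, Platr14, Cdkn1a, Bax, Gclm, Vegfa, Tubb3 and Map2 were outside it and were chosen after their values were seen, as were the genes given by name only. The comparison and the 42 gene lists were chosen with earlier results of these data known.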

Additional observations from a re-analysis of the deposited data

Results flagged for a closer look

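In 9 of 264 groups of 4 libraries (3.41%, where chance gives about 1 in 20), the library at one end stood apart from the other 3 of its group by Dixon's test. Control 1 was low for Nr5a2, at 7.52 CPM. Control 2 was high for Klf4 (42.3 CPM), Gdf3 (14.8 CPM) and Gclm (49.5 CPM), and low for Col8a1 (0.936 CPM) and Loxl3 (8.06 CPM). Control 4 was high for Myh13, at 2.59 CPM. LDHi 3 was high for Wdr86, at 13.4 CPM, and LDHi 2 low for Bmp7, at 57.5 CPM.

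The effect of LDHi differed between replicates 1 and 2 and replicates 3 and 4 in 726 genes by edgeR's interaction term. Among the named genes these were Ldha (adjusted p = 0.0142), Ldhb (0.024), Slc16a1 (0.0118), L1td1 (0.018), Lhx5 (0.0069), Col9a1 (0.0296), Col3a1 (0.0462), Acta2 (0.0468), Stra6 (0.00351), Tubb3 (0.00983), Map2 (0.00351) and Wnt7b (0.0284). The mean log2 difference of L1td1 was 1.12 in the first set and 1.85 in the second, and that of Col3a1 -2.21 and -5.64. The falls of Col9a1 (-4.59 and -2.60), Acta2 (-3.76 and -2.28) and Stra6 (-2.79 and -1.59) were larger in the first set. The cause of the differences between the sets was not tested.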

How the results depend on the processing

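The counts of higher and lower genes, 1746 and 1787 with the replicate block, were 161 and 386 with no replicate block (29.4% of calls higher against 49.4%), 801 and 1017 in the 8 control and LDHi libraries with the block, 91 and 213 in these without it (chosen after seeing the data), 476 and 854 by DESeq2 without the block, and 384 and 602 with an absolute log2 fold change of at least 1. Leaving out a replicate or a library gave 823 to 1727 higher and 1003 to 1648 lower genes. With other scaling, other filters, DESeq2 with the block or either set alone, counts stayed within 1.5 times. The 726 genes whose effect differed between the sets became 1259 by DESeq2 and 0 with no replicate block and the set as a term (chosen after seeing the data). Of the 125 named genes that were called, 65 were also called with no replicate block and 60 were not, 125 by DESeq2 with the block and 97 by DESeq2 without it, and none changed sign under any alternative listed here. En2 lost its call without LDHi 3, Trim43b without control 1, and 9 genes without 1 replicate. Without 1 replicate number, the higher calls became 3 of 32 cell cycle genes (replicate 1), 0 of 15 midbrain and hindbrain genes (replicate 3), 1 of 24 Wnt genes (replicate 1), 4 of 18 forebrain genes (replicates 1 and 2), 3 of 19 epithelial genes (replicates 3 and 4), 2 of 16 Nodal genes (replicate 3) and 3 of 27 histone acetylation genes (replicate 4). The cause was not tested. Genes that were not called changed sign. In replicates 1 and 2 alone Ldha was at a log2 fold change of -0.19, and in replicates 3 and 4 alone Ldhb was at 0.20, Slc16a1 at 0.24, Slc16a3 at 0.25, Tubb3 at -0.40 and Map2 at -0.61. Without single replicates or libraries Ldha ranged from -0.04 to 0.15, Ldhb from -0.12 to 0.08, Slc16a1 from -0.18 to 0.08 and Slc16a3 from -0.30 to 0.02. Genes at a few counts per library, such as Mixl1 and Trim43b, are limited by depth, and replicates 3 and 4 had the lower depth.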
